A study of Drosophila melanogaster with 10 samples.

Results

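The male dosage compensation complex was examined through its 8 genes: the noncoding RNA genes lncRNA:roX1 and lncRNA:roX2 (roX1 and roX2), the protein genes msl-1, msl-2, msl-3, mle and mof, and Clamp, which encodes the factor that guides the complex to the X. They were chosen by name and found by identifier, and all 8 were among the 17559 genes of the count table and among the 13928 genes that passed the filter on low counts. The measurements are RNA sequencing counts from whole adult male Drosophila melanogaster aged 5 to 10 days, 5 flies pooled per sample, in 5 Mef2 knockdown and 5 control samples. Knockdown males had the genotype w[1118] / Y with c564 / + and UAS-Mef2-IR[GD15549] / +, and control males were w[1118] / Y with c564 / + and no hairpin. All flies therefore carried the w[1118] allele on the X. The genotypes name nothing else of that chromosome, so whether the rest of it was the same is not settled here. All flies also carried the c564 driver, known to drive GAL4 mainly in fat body but in further tissues as well. The driver thus acts in part of the fly, while the RNA came from the whole of it. The design text and the sample labels place the hairpin on different chromosomes, so its site is not settled here. The study asks what loss of the muscle and fat body transcription factor Mef2 does to gene expression.

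Drosophila males carry a single X and raise its transcription to match the paired autosomes. MSL2, made in males because Sex-lethal blocks its translation in females, binds the scaffold MSL1 and recruits MSL3, the helicase MLE and the acetyltransferase MOF, and the helicase loads a roX RNA into the complex. CLAMP binds GA-rich sites on the X and on autosomes and marks the entry sites, among them the roX genes themselves. The complex spreads over active X-linked genes and acetylates histone H4 at lysine 16, and the roX RNAs can largely replace each other in this. In flies the complex works in somatic cells, and the male germ line is known to do without it.

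Libraries held 43823883 to 102851945 counts. Mef2 itself was lower in the knockdown (79.3 ± 5.1 CPM in knockdown and 93.6 ± 4.6 CPM in control libraries, SD, n = 5 each; log2 fold change -0.24, SE 0.06, adjusted p = 0.0149) and its log2 fold change was -0.34 in replicates 1 to 3 and -0.09 in replicates 4 and 5 (adjusted p of the interaction = 0.0425). In a fit of replicates 4 and 5 alone Mef2 was not called (adjusted p = 0.28). w, the eye pigment gene that transgenes commonly carry as a marker, was at 399 ± 106 CPM in knockdown and 54.6 ± 4.7 CPM in control libraries (log2 2.87, adjusted p = 8.61e-07). CPM are read counts relative to library size, after TMM scaling. Adjusted p-values of genes are edgeR quasi-likelihood values, adjusted by the Benjamini-Hochberg method over all tested genes, and a gene was called under 0.05. In the whole data replicates 1 to 3 and replicates 4 and 5 of both groups stood apart, so values within these sets are given beside the pooled ones. No label explains the sets. Knockdown replicates 4 and 5 also stood apart from the other libraries and from each other. Their sample quality weights in limma voom were 0.174 and 0.161, where the other 8 libraries had 0.8 to 2.77. The chi-square of counts per degree of freedom between these 2 was 66.9, against 7.81 between control replicates 4 and 5, and it was 11.1 to 15.2 among knockdown replicates 1 to 3. Values for replicates 1 to 3 are therefore also the values without these libraries. Of 18 yolk and eggshell genes of females, 8 passed the filter. The 18 summed to 12.9 to 15.3 CPM in knockdown and 14.7 to 18.2 CPM in control libraries. The 11 accessory gland genes summed to 2731 to 3840 CPM in knockdown and 3758 to 4249 CPM in control libraries.

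Of the 8 genes, roX2 was called higher in knockdown males, none was called lower and 7 were not called. Across all tested genes 16.6% were called in either direction, 11.1% higher and 5.51% lower, so 1 call among 8 is close to the background. With upper-quartile scaling the calls over all genes were 1301 higher and 1145 lower, against 1549 and 768 with TMM, and roX2 was not called. The median log2 fold change was 0.08 for the 8 genes and -0.004 for all tested genes. Log2 fold changes ran from -0.11 for roX1 to 0.29 for roX2. They were above 0 for 6 of the 8 genes, where 49.3% of all tested genes were above 0.

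**Figure D1:**
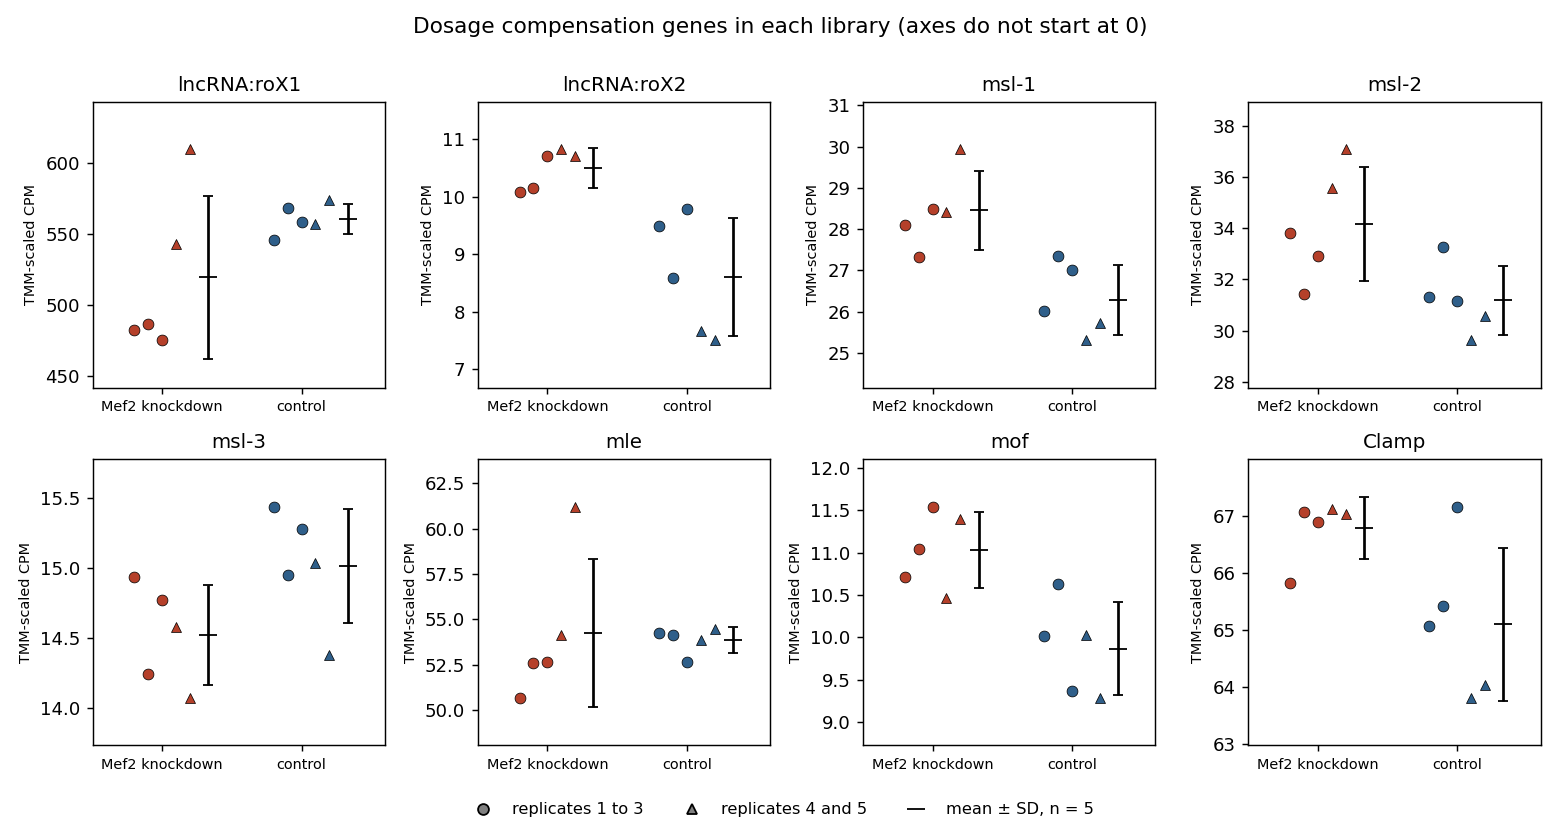
TMM-scaled CPM of each dosage compensation gene in the 5 Mef2 knockdown and 5 control libraries, circles for replicates 1 to 3 and triangles for replicates 4 and 5, with mean ± SD (n = 5). The groups separate without overlap for roX2 alone, where the knockdown libraries lie between 10.1 and 10.8 CPM.

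In RNA from whole flies, fewer cells of a type and less RNA per cell cannot be told apart, and markers of several cell types moved with the groups. All 14 tested testis genes had negative log2 fold changes (median -0.16, none called), and the list summed to 2048 to 2508 CPM in knockdown and 2522 to 2698 CPM in control libraries. All 11 accessory gland genes were negative (median -0.28, 1 called), and all 10 hemocyte genes positive (median 0.46, 7 called higher). The sum of the hemocyte list was 950.0 to 1212 CPM in knockdown and 698 to 840.3 CPM in control libraries. Its largest members were the collagen IV genes Col4a1 (means of 374 CPM in knockdown and 219 CPM in control libraries) and vkg (246 and 152 CPM). Both are known to be active in fat body as well, so the sum is not one of hemocytes alone. The others called higher were Hml, NimC1, eater, Sr-CI and crq. Medians were 0.04 for 9 tested fat body genes (2 higher, 2 lower; sum 2744 to 3575 CPM in knockdown and 2919 to 3647 CPM in control libraries), 0.13 for 14 muscle genes, -0.07 for 10 neuron genes and -0.13 for 13 photoreceptor genes, with 0, 0 and 1 called in the last 3 lists. The part of these shifts in the values of the dosage compensation genes was not tested.

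roX1 (FBgn0019661, chromosome X, 3857230 to 3862697, minus strand, BDGP6) is the longer of the roX RNAs, with 5468 nt of exon in the annotation. Its level was 482, 487, 476, 543 and 609.8 CPM in knockdown replicates 1 to 5, against 546, 568, 559, 557 and 574 CPM in control replicates 1 to 5. In knockdown replicates 1 to 4 it was below every control library, and in knockdown replicate 5 above every one. The means were 519 ± 57 CPM in knockdown and 560.7 ± 10.8 CPM in control libraries (SD, n = 5 each), and the log2 fold change of -0.11 (SE 0.07, adjusted p = 0.298) was not called. The interval of 2 SE either side ran from -0.26 to 0.04. In replicates 1 to 3 the log2 fold change was -0.21 and in replicates 4 and 5 it was 0.03, and this difference was not called (interaction adjusted p = 0.0669). Leaving out knockdown replicate 5 alone gave a called fall (log2 -0.19, adjusted p = 0.0454). A fit of replicates 1 to 3 alone also called roX1 lower (log2 -0.21, adjusted p = 0.00382). So did limma voom with sample quality weights (log2 -0.20, adjusted p = 0.00263). The exons overlap those of ec on the opposite strand over 392 nt (7.2%). Whether counting used strand is not given, and the effect of this stretch on the roX1 count is not settled. ec was at 7.97 ± 1.58 CPM in knockdown and 9.21 ± 0.97 CPM in control libraries, a small part of the roX1 level.

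roX2 (FBgn0019660, chromosome X, 11579065 to 11580432, plus strand) is the shorter RNA, with 1368 nt of exon. It stood at 10.1, 10.1, 10.7, 10.8 and 10.7 CPM in knockdown replicates 1 to 5, against 9.48, 8.58, 9.78, 7.66 and 7.51 CPM in control replicates 1 to 5. Every knockdown library was above every control library, and no other gene of the 8 separated in this way, where 18.6% of all tested genes did. The log2 fold change was 0.29 (SE 0.08, adjusted p = 0.0344), which is 1.22-fold. The control libraries varied more (SD 1.03 CPM), with replicates 4 and 5 the lowest of all 10, and the knockdown libraries differed little among themselves (SD 0.353 CPM). Replicates 1 to 3 gave a log2 fold change of 0.15 and replicates 4 and 5 gave 0.51, a difference that was called (interaction adjusted p = 0.036) as it was for 18.8% of tested genes. Fitted alone, replicates 1 to 3 gave no call for roX2 (adjusted p = 0.108). The call for roX2 did not hold without control replicate 2, 4 or 5 or knockdown replicate 3, 4 or 5 (adjusted p 0.0541 to 0.0799).

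The level of roX1 relative to roX2 was lower in every knockdown library than in any control library. Per kb of exon, roX1 exceeded roX2 by 11.97, 11.999, 11.1, 12.5 and 14.2 times in knockdown replicates 1 to 5, against 14.4, 16.6, 14.3, 18.2 and 19.1 times in control replicates 1 to 5. The ratio averaged 12.4 ± 1.2 in knockdown and 16.5 ± 2.2 in control libraries (SD, n = 5 each), and the groups met without overlapping, with a knockdown maximum of 14.2 and a control minimum of 14.3. No test is given for this ratio, since it combines the members. Other ratios of members were also taken. Of these, msl-1 over msl-3 and roX1 over msl-2 did not overlap between the groups. Those of msl-2 over msl-1, msl-2 over msl-3, mle over msl-2 and Clamp over msl-2 overlapped. The share of all gene pairs whose ratio separates in this way was not determined. roX2 made up 6.56% to 8.26% of the summed roX level per kb in knockdown and 4.97% to 6.539% in control libraries. The roX1 RNA was by far the more abundant in every library.

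**Figure D2:**
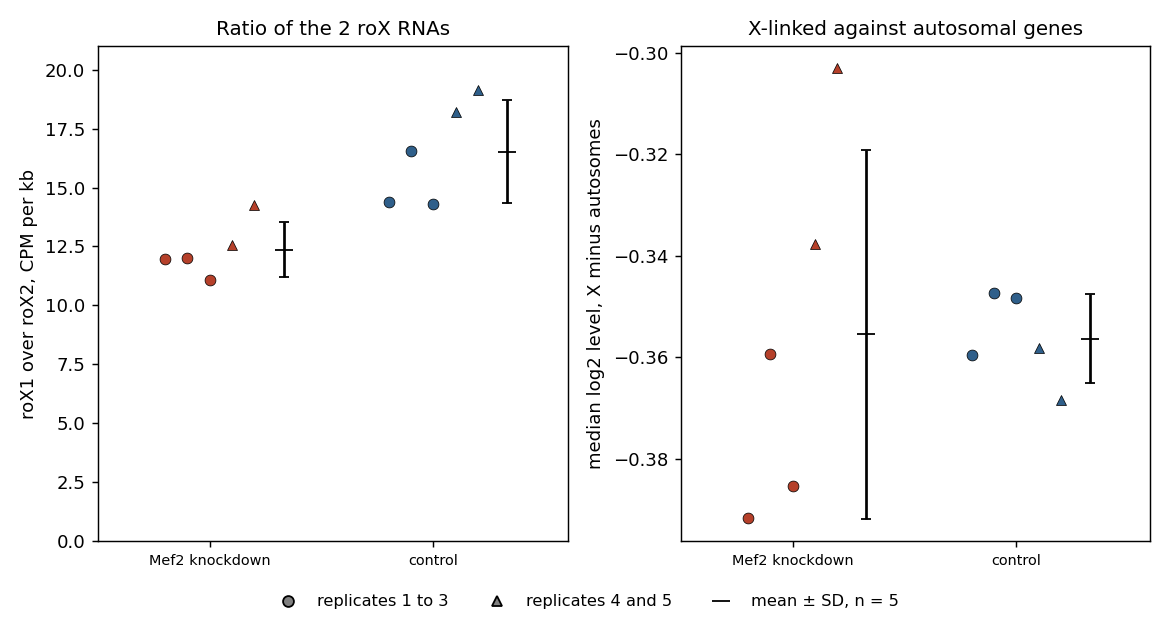
Left, the ratio of roX1 to roX2 in CPM per kb of exon, and right, the median log2 level of X-linked genes minus that of autosomal genes, in each Mef2 knockdown and control library (mean ± SD, n = 5). The ratio lies between 11.1 and 14.2 in knockdown and between 14.3 and 19.1 in control libraries, while the X-linked level overlaps between the groups.

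msl-2 (FBgn0005616, chromosome 2L, 3462218 to 3466112), the male-specific subunit and a ubiquitin ligase, had 33.8, 31.4, 32.9, 35.6 and 37.1 CPM in knockdown replicates 1 to 5, against 31.3, 33.3, 31.2, 29.6 and 30.6 CPM in control replicates 1 to 5. The highest values were those of knockdown replicates 4 and 5 and the lowest those of control replicates 4 and 5, while replicates 1 to 3 of the groups intermingled. The log2 fold change of 0.13 (SE 0.06, adjusted p = 0.125) was not called. Replicates 1 to 3 gave 0.04 and replicates 4 and 5 gave 0.27 (adjusted p of the interaction = 0.0537). For msl-1 (FBgn0005617, chromosome 2L, 18683720 to 18688800), the scaffold, values were 28.1, 27.3, 28.5, 28.4 and 29.9 CPM in knockdown replicates 1 to 5 and 26.0, 27.3, 27.0, 25.3 and 25.7 CPM in control replicates 1 to 5. The ranges overlapped by knockdown replicate 2 and control replicate 2, and the log2 fold change was 0.11 (SE 0.05, adjusted p = 0.106). The ratio of these partners per kb, msl-2 over msl-1, was 1.57 ± 0.06 in knockdown and 1.55 ± 0.03 in control libraries (SD, n = 5 each), and the groups overlapped.

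msl-3 (FBgn0002775, chromosome 3L, 7123213 to 7125533), the chromodomain subunit that takes part in spreading along X-linked genes, had a log2 fold change below 0. It was at 14.9, 14.2, 14.8, 14.6 and 14.1 CPM in knockdown replicates 1 to 5, against 15.4, 14.9, 15.3, 15.04 and 14.4 CPM in control replicates 1 to 5. The ranges of the groups overlapped, and the log2 fold change of -0.05 (SE 0.05, adjusted p = 0.462) was not called. The msl-1 to msl-3 ratio per kb ran from 0.739 to 0.834 in knockdown and from 0.661 to 0.718 in control libraries, without overlap. This ratio was not tested, and the share of all gene pairs that separate in this way was not determined.

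mof (FBgn0014340, chromosome X, 5873840 to 5876853), the acetyltransferase, is itself X-linked. It measured 10.7, 11.04, 11.5, 10.5 and 11.4 CPM in knockdown replicates 1 to 5, against 10.0, 10.6, 9.37, 10.0 and 9.29 CPM in control replicates 1 to 5. The mof ranges of the groups overlapped by control replicate 2 and knockdown replicate 4. Its log2 fold change of 0.16 (SE 0.06, adjusted p = 0.0774) was the largest among the protein genes, was 0.15 in replicates 1 to 3 and 0.18 in replicates 4 and 5, and was not called. It was called with the set of replicates as a covariate (adjusted p = 0.0445) and with limma voom and sample quality weights (adjusted p = 0.027).

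mle (FBgn0002774, chromosome 2R, 5974857 to 5980778), the RNA helicase that remodels the roX RNAs, also serves outside dosage compensation. It had 50.7, 52.6, 52.6, 54.1 and 61.2 CPM in knockdown replicates 1 to 5, against 54.2, 54.2, 52.7, 53.8 and 54.5 CPM in control replicates 1 to 5. Control libraries lay between 52.7 and 54.5 CPM, and the knockdown range was stretched by replicate 5 at the top and replicate 1 at the bottom. The log2 fold change was 0.01 (SE 0.05, adjusted p = 0.906), with an interval of -0.10 to 0.12, and its sign changed with upper-quartile scaling (-0.03). Clamp (FBgn0032979, chromosome 2L, 22165720 to 22169143), the zinc finger factor, varied least of the 8 among the knockdown libraries, and mle and roX1 varied less than Clamp among the control libraries. It read 65.8, 67.1, 66.9, 67.1 and 67.0 CPM in knockdown replicates 1 to 5, against 65.1, 65.4, 67.2, 63.8 and 64.0 CPM in control replicates 1 to 5. The log2 fold change was 0.04 (SE 0.04, adjusted p = 0.492), with an interval of -0.04 to 0.11, and was -0.004 with upper-quartile scaling. Of Clamp's 2897 nt of exon, 502 nt (17.3%) overlap CG42748 on the other strand, which was at 119 ± 8 CPM in knockdown and 129 ± 5 CPM in control libraries. If strand was not used, the Clamp count over this stretch could be affected, in a direction that is not settled here. The overlaps of msl-3 with form3 (4.3% of its exons) and of msl-2 with mir-4971 (2.9%, a count of 0 in every library) are smaller.

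**Figure D3:**
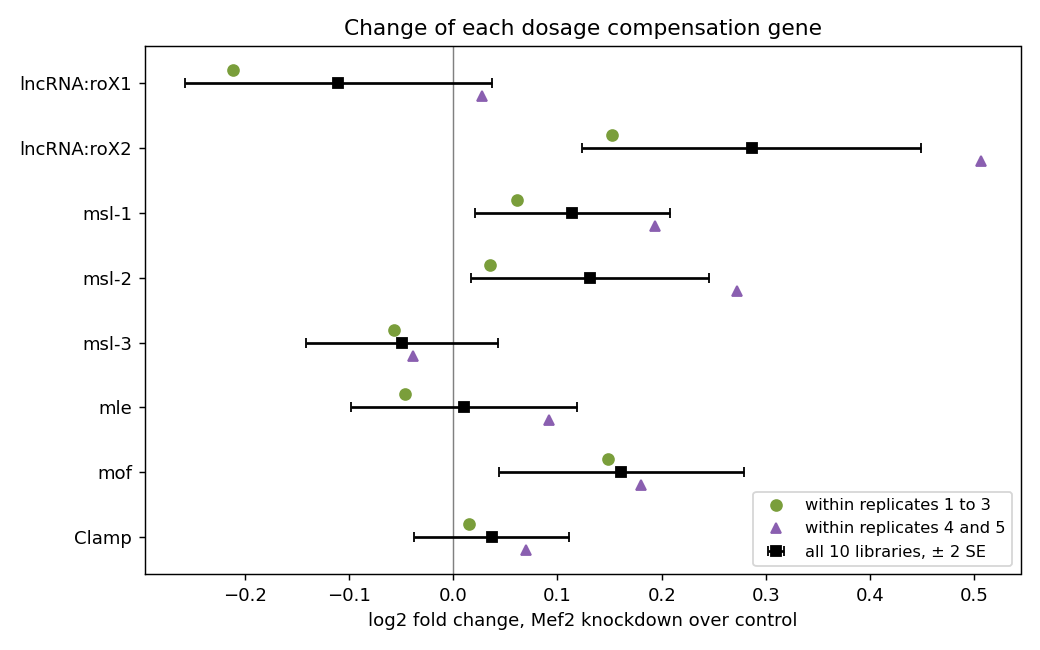
Log2 fold change, Mef2 knockdown over control, of each dosage compensation gene, with squares for all 10 libraries ± 2 SE, circles for replicates 1 to 3 and triangles for replicates 4 and 5. roX1 is the lowest at -0.11 and roX2 the highest at 0.29, and in all 8 genes the value within replicates 4 and 5 lies to the right of that within replicates 1 to 3.

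The spread among libraries was as follows. In control libraries the coefficient of variation was 1.31% for mle, 1.93% for roX1, 2.06% for Clamp, 2.7% for msl-3, 3.27% for msl-1, 4.3% for msl-2, 5.57% for mof and 12.0015% for roX2, where the median over all tested genes was 6.94%. In knockdown libraries roX1 and mle spread more (11.01% and 7.49%), roX2 and Clamp less (3.36% and 0.819%), and the median over all tested genes was 11.6%. Only 2 of the 13928 tested genes had a smaller coefficient of variation than Clamp in the knockdown libraries, and 452 did in the control libraries. At the 3006 to 6845 Clamp reads of a knockdown library, counting error alone would give a larger spread than the one seen. The low value thus cannot be read as tight control, and genes with fewer reads vary more by counting alone. With 5 libraries a group such values are imprecise and no test of them was made.

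Levels of different genes were compared per kb of exon. roX1 led with 95.01 ± 10.5 CPM per kb in knockdown and 102.5 ± 2.0 in control libraries (SD, n = 5 each), and ranked 898 among 13699 genes with a length and 13 among 1402 noncoding genes. Clamp followed with 23.1 and 22.5 CPM per kb, and mle with 11.7 and 11.6, as means of knockdown and control libraries. Next came msl-2 (8.89 and 8.12), msl-3 (7.37 and 7.62), roX2 (7.67 and 6.29), msl-1 (5.67 and 5.23) and mof (3.66 and 3.27), given in the same way. In control libraries msl-2 and msl-3 overlapped and all other neighbours in this order were separate. In knockdown libraries roX2 and msl-3 overlapped and changed places, and all others were separate. The roX2 RNA lay among the mRNAs of the protein subunits, below Clamp, mle and msl-2 and above msl-1 and mof in both groups. Annotated exons are merged over all isoforms, which lowers the value of a gene whose longest form is rare.

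**Figure D4:**
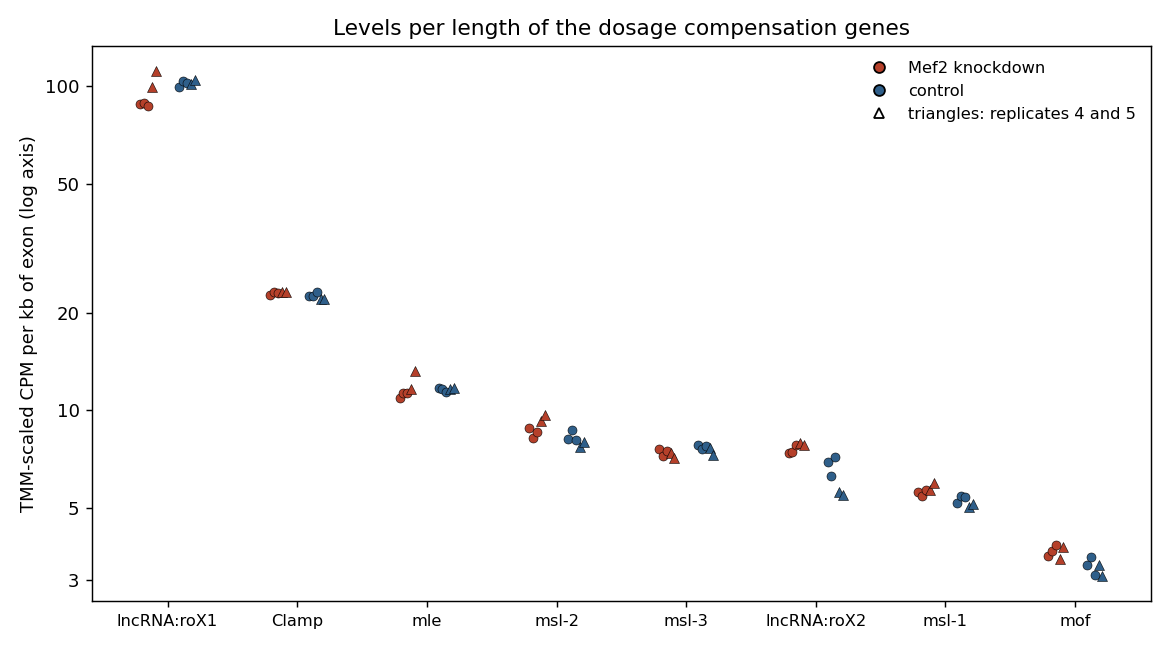
TMM-scaled CPM per kb of exon on a log axis, for each gene in each Mef2 knockdown and control library, in descending order of the control mean. roX1 lies between 87.0 and 112 CPM per kb, Clamp between 22.0 and 23.2, and the other 6 genes lie between 3.08 and 13.2 CPM per kb.

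The roX genes are also entry sites on the X, so the genes beside them were examined, 3 tested genes on each side. Next to roX2 lie CG11695 at 0.259 kb and nod, a kinesin-like gene, at 0.34 kb. Their log2 fold changes were 0.11 (adjusted p = 0.352) and -0.12 (adjusted p = 0.539), and neither was called. Of the 6 neighbours of roX2, pkm, 1.525 kb away, was called, and it was lower (62.6 ± 2.7 CPM in knockdown and 72.9 ± 6.4 CPM in control libraries, SD, n = 5 each; log2 -0.22, adjusted p = 0.0392), though not without control replicate 1, 2, 3 or 4 or knockdown replicate 1, 3 or 5 (adjusted p 0.0514 to 0.0892). e(y)2, a subunit of transcription and mRNA export complexes, CG11696 and CR43212 had log2 fold changes of 0.07, 0.05 and 0.05. Next to roX1, yin, a peptide transporter gene 0.269 kb away, had 29.2 ± 1.3 CPM in knockdown and 26.1 ± 1.5 CPM in control libraries without overlap, but was not called (log2 0.16, adjusted p = 0.0675). Such a separation held for 18.6% of all tested genes. Of the 6 neighbours of roX1, CG15239, 21.5 kb away, was called and lower (0.646 ± 0.183 CPM in knockdown and 1.63 ± 0.81 CPM in control libraries, log2 -1.35, adjusted p = 0.019). The others, CG2930, CG2901, HIP and CR33221, had log2 fold changes of -0.30 to 0.29, and none was called. In the comparison of all 10 libraries no neighbour was called higher. yin was called higher with DESeq2's Wald test (adjusted p = 0.0486) and with the set of replicates as a covariate (adjusted p = 0.0356). With that covariate CG2901, CR33221 and ec, which overlaps roX1, were called lower. CG2901 was also called lower in replicates 4 and 5 alone. Lower calls were made for nod with limma voom and sample quality weights and in replicates 1 to 3 alone. The HIP log2 fold change was called in replicates 4 and 5 alone (0.68, adjusted p = 0.0141), and its effect differed between the sets (adjusted p of the interaction = 0.0067).

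The complex acts on the X as a whole, so X-linked genes were set beside the autosomal ones. Of 2093 tested X-linked genes, 244 (11.7%) were called higher and 98 (4.68%) lower. On the arms 2L, 2R, 3L and 3R together, 1283 of 11459 (11.2%) were higher and 655 (5.72%) lower. The median log2 fold change was 0.02 for X-linked and -0.01 for autosomal genes. For a value that can be compared over libraries, the median log2 level per kb of 1861 X-linked genes was set against that of 10040 autosomal genes in each library. The X-linked median was below the autosomal one by a log2 of -0.392, -0.359, -0.385, -0.338 and -0.303 in knockdown replicates 1 to 5, against -0.360, -0.347, -0.348, -0.358 and -0.368 in control replicates 1 to 5. The means were -0.355 ± 0.036 in knockdown and -0.356 ± 0.009 in control libraries (SD, n = 5 each). They differed by 0.0009, and a two-sided exact permutation test over all arrangements of the libraries gave p = 0.976, where the smallest possible p is 0.00794. In replicates 1 to 3 the difference was -0.03 and in replicates 4 and 5 it was 0.04, with exact permutation p = 0.2 and 0.333 in sets too small to reach 0.05. The knockdown libraries spread more than the controls, and knockdown replicates 4 and 5 had the highest X-linked level of all 10. The distance of the X from the autosomes within a library depends on the division by exon length. Without that division, the median log2 CPM of tested genes was 4.14 on the X and 4.14 on the autosomal arms. The distance is thus no measure of how far the X was compensated.

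**Figure D5:**
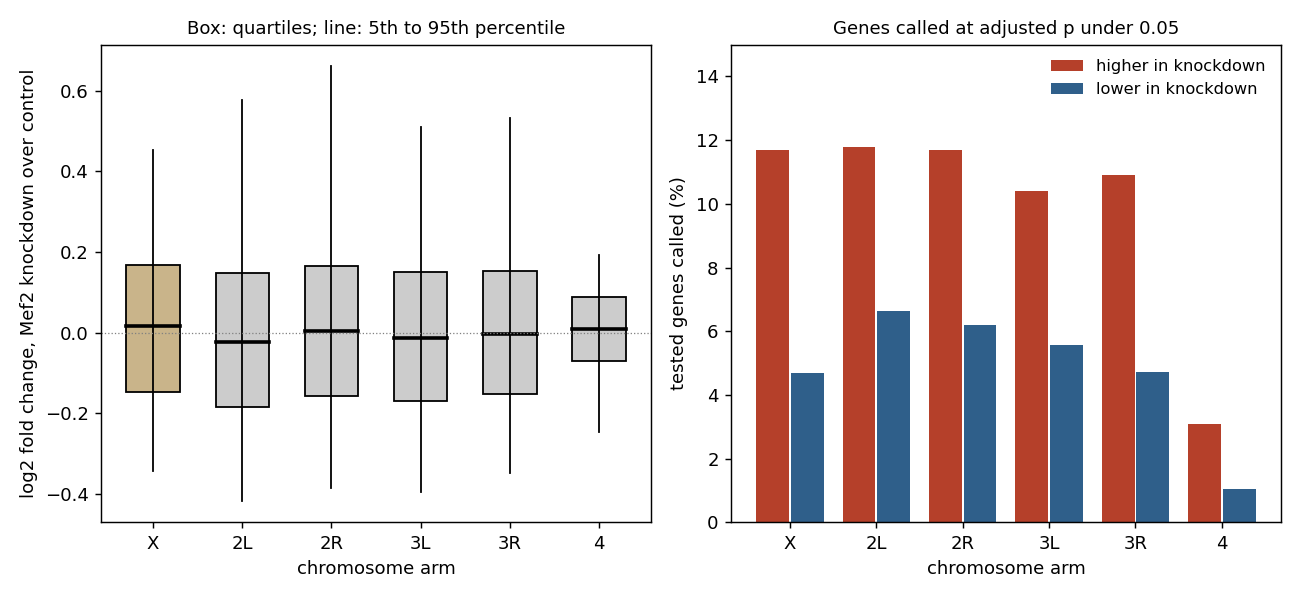
Left, log2 fold changes (Mef2 knockdown over control) of tested genes by chromosome arm, with box for the quartiles, bar for the median and line from the 5th to the 95th percentile, and right, the percentage of tested genes called higher or lower. The X, with 11.7% higher and 4.68% lower, lies within the range of the other large arms for the higher calls and just below it for the lower calls, and chromosome 4 has the fewest calls.

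A list of 13 genes held those that control msl-2 and others of sex determination (msl-2 control genes below). Of the 13, 2 were called higher and none lower, close to the 11.1% of all tested genes that were called higher. The median log2 fold change was 0.12. On this list tra, tra2, dsx and fru do not control msl-2. tra, the female splicing factor whose RNA in males is known to carry an early stop, had 9.40 ± 1.06 CPM in knockdown and 6.81 ± 0.80 CPM in control libraries (log2 0.47, SE 0.10, adjusted p = 0.0101), with 0.46 in replicates 1 to 3 and 0.48 in replicates 4 and 5. Sxl, the switch gene whose male transcripts likewise encode no functional protein, had 131 ± 14 CPM in knockdown and 111 ± 3 CPM in control libraries (log2 0.25, SE 0.07, adjusted p = 0.0357). Its log2 fold change was 0.12 in replicates 1 to 3 and 0.42 in replicates 4 and 5, a difference that was called (adjusted p of the interaction = 0.0222). The Sxl call was lost without any 1 of the 5 control libraries or knockdown replicate 4 or 5 (adjusted p 0.0611 to 0.0965). Of tra's exons 8.6% overlap l(3)73Ah on the opposite strand. Counts per gene do not tell male from female splice forms. snf, a spliceosome protein needed for Sxl splicing, (log2 0.14, adjusted p = 0.0627) and Hrb27C, an RNA-binding protein (log2 0.24, adjusted p = 0.0626), separated without overlap but were not called. The same held for tra2 (log2 0.08, adjusted p = 0.211). Of all tested genes, 18.6% separated without overlap. Unr, the partner of Sex-lethal in msl-2 repression, which in males also takes part in roX incorporation, had a log2 fold change of 0.15 (adjusted p = 0.131).

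Of the 8 genes of the NSL complex, the other complex that contains MOF and sits at promoters on all chromosomes, none was called in the main comparison, and up to 3 were called higher and up to 1 lower under other settings. The 3 with the smallest p were Rcd1 (log2 0.15, adjusted p = 0.0974), wds (log2 0.23, adjusted p = 0.102) and MBD-R2 (log2 -0.10, adjusted p = 0.128). MBD-R2 passed without knockdown replicate 5 (adjusted p = 0.0459). The list's median was -0.001 in replicates 1 to 3 and 0.25 in replicates 4 and 5. Of 18 chromatin factors tied to the male X, to histone H4 acetylation or to roX transcription, 1 was called higher and 1 lower, where 11.1% of all tested genes were higher and 5.51% lower. Sirt1, a deacetylase, rose (67.4 ± 2.5 CPM in knockdown and 59.0 ± 2.4 CPM in control libraries, log2 0.19, SE 0.05, adjusted p = 0.0179), a call lost without control replicate 1 (adjusted p = 0.0556). Pof, which binds the genes of chromosome 4 as the dosage compensation complex binds those of the X, fell (264.6 ± 31.1 CPM in knockdown and 321 ± 11 CPM in control libraries, log2 -0.28, SE 0.08, adjusted p = 0.0333). Replicates 1 to 3 gave -0.17 for Pof and replicates 4 and 5 gave -0.47 (adjusted p of the interaction = 0.0267). Pof was not called without any 1 of the 5 control libraries (adjusted p 0.0545 to 0.0713). Exons on the opposite strand overlap 13.4% of Sirt1 (DnaJ-H) and 14.1% of Pof (Mmp1). Nup153, a nuclear pore protein, had a log2 fold change of 0.19 (adjusted p = 0.0605), and was called without knockdown replicate 3 (adjusted p = 0.042). JIL-1, the histone H3 kinase enriched on the male X, was at 93.6 ± 5.3 CPM in knockdown and 100.3 ± 2.6 CPM in control libraries, without overlap, and was not called (adjusted p = 0.172). Rcd1 and Nup153 also separated without overlap, as did 18.6% of all tested genes.

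Over the 10 libraries, the profiles nearest to roX1 were those of ort, Pdss2 and hppy, whose centred log2 CPM differed from it by a root mean square of 0.03, 0.04 and 0.04, where the roX1 profile itself had 0.11. Nearest to roX2 were CG2201, CG13907 and CG17746 (0.06, 0.07 and 0.08, against 0.19 for roX2 itself). CG13907 (log2 0.26, adjusted p = 0.0167) and CG17746 (log2 0.34, adjusted p = 0.00247) were called higher, and CG2201 was not (log2 0.19, adjusted p = 0.0971). They were picked for likeness to roX2 in the same libraries, and roX2 was itself called higher. Their calls are thus no separate result. Nearest to msl-2 were Slc25A46a, Taf5 and eIF3e, at 0.03 each, against 0.10 for msl-2. Of these 9 genes, Slc25A46a alone lies on the X. The measure was taken over 10578 genes averaging 2 or more on the log2 CPM scale, and favours genes that vary little.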

How the data were processed

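The authors deposited 1 table of raw read counts per gene for the 10 libraries, whole numbers for 17559 gene identifiers. Per the labels' protocols, polyadenylated RNA was made into strand-preserving libraries from 250 ng of total RNA with 14 PCR cycles. The submitters' processing notes name STAR 2.4.0j, featureCounts, bcl2fastq, limma and the genome BDGP6. The sources used here do not give the annotation release, the strand setting or how multimapping reads were treated. Symbols, coordinates and exon lengths came from Ensembl release 115 of BDGP6, which held 17253 of the identifiers. The detection floor was set at 3 counts per library, or 0.0294 to 0.067 CPM, which covers counting error only. No genome sequence was used here.

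Counts were compared with edgeR 4.0.16 in R 4.3.3 (TMM, filterByExpr with minimum count 10, quasi-likelihood fit on group), in code tested on simulated data first. There, 18% of 1.25-fold and 82% of 1.5-fold changes were called, and 8.12% of the calls were false. The largest change among the members was 1.22-fold, so changes of the size seen in them can go uncalled. Alternatives used limma 3.58.1, DESeq2 1.42.0 and other scalings, filters and sample choices. The labels call samples of a group biological replicates and number them 1 to 5. Deviations from group means correlated at 0.16 to 0.28 between same-numbered libraries, at 0.09 to 0.34 between other numbers of the same set, and at -0.31 to -0.10 between sets. The numbers come from the labels, which give them no further meaning, and the deviations followed the set at least as much as the number. The fit with the number as a block is an alternative. The smallest chi-square over degrees of freedom between libraries of a group was 6.86, so none was the same library sequenced again. This value cannot tell separate preparations from the same flies from separate samples. X-linked levels used log2(CPM per kb + 0.1) over genes with a mean of at least 1 CPM.

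The members and lists were chosen with earlier results of these data known. Genes named were the 8 members, Mef2, w, the 3 smallest p and all called genes of each related list, the 3 tested neighbours on each side of a roX gene, and the 3 nearest profiles. JIL-1, Unr, tra2, the Y-linked genes and the genes overlapping a named gene were added after their values were seen. CG1832 on one list proved to be an older name of Clamp and was counted as Clamp only, and Top2, vas, wupA, VAChT and para were not matched by symbol.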

Additional observations from a re-analysis of the deposited data

Results flagged for a closer look

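Clamp in knockdown replicate 1, at 65.8 CPM, lay apart from the other 4 knockdown libraries: its gap to the nearest was 0.835 of the range of the 5, above the bound of 0.71. The whole range was 65.8 to 67.1 CPM and replicate 1 was still within the control range of 63.8 to 67.2 CPM. About 1 in 20 groups is picked out by chance, and the rule was applied to 20 groups of 5 libraries.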

How the results depend on the processing

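Upper-quartile scaling left 0 members called higher (roX2 0.24), turned mle (-0.0311) and Clamp (-0.0036) below 0 and called 1 NSL gene lower. With no filter beyond 1 count, 0 members were higher (roX2 0.27), mle was -0.0081 and 1 msl-2 control gene was higher. DESeq2's Wald test called 1901 genes higher and 1304 lower, on the X 311 and 171, and 4 msl-2 control genes and 2 X chromatin genes higher. limma voom with quality weights called 2164 genes higher and 1547 lower, on the X 331 and 186, 2 members higher (mof 0.16, roX2) and 1 lower (roX1 -0.20), 4 msl-2 control and 3 X chromatin genes higher and 1 NSL gene lower, with mle at -0.0393, HIP at -0.0398 and CG2930 at 0.0291. With the set of replicates as a covariate, 2687 genes were higher and 2084 lower, on the X 447 and 278, with 2 members (mof 0.16, roX2), 4 msl-2 control, 2 NSL and 3 X chromatin genes higher. Replicates 1 to 3 alone gave 2150 genes higher and 1386 lower, on the X 305 and 153, 0 members higher (roX2 0.15), 1 lower (roX1 -0.21), 1 NSL gene lower and 2 X chromatin genes higher, with mle at -0.0449, HIP at -0.0705, CG2930 at 0.0497 and the X minus autosome difference at -0.0272. Replicates 4 and 5 alone gave 1832 genes higher and 2011 lower, so that lower calls outnumbered higher ones as in no other setting listed here, on the X 335 and 283, and 3 NSL and 3 X chromatin genes higher, with roX1 at 0.0025, e(y)2 at -0.10, nod at 0.0147, CR43212 at -0.0221, Pdss2 at 0.0089 and hppy at 0.0622. The X minus autosome difference was -0.0025 for genes averaging at least 5 CPM and -0.0032 for genes of at least 1 CPM in both groups. Apart from fewer samples or genes where a setting removes them, the cause was not tested.

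Leaving out 1 library at a time gave 853 to 1612 genes higher and 414 to 941 lower, 118 to 264 X-linked genes higher and 46 to 124 lower, and 0 to 1 members in each direction. roX1 ranged from -0.19 to -0.0799, roX2 from 0.24 to 0.32, mle from -0.053 to 0.0227 and the X minus autosome difference from -0.0122 to 0.0099. Called higher were 1 to 3 msl-2 control and 0 to 2 X chromatin genes, and lower 0 to 1 NSL and 0 to 1 X chromatin genes. CG2930 ranged from -0.0429 to 0.0294, CG11696 from -0.008 to 0.0821 and CR43212 from -0.0546 to 0.181. With the replicate block, which pairs libraries by number, 1819 genes were higher and 1019 lower, roX2 was 0.29 (adjusted p = 0.042) and no member's call changed. roX2 and mof had the fewest counts of the members, 341 to 1036 and 422 to 1127 reads a library.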

Other observations

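Genes of the Y chromosome, which in flies serve spermatogenesis, leaned lower in the knockdown, unlike those of the X. Of 20 tested, 19 had a negative log2 fold change (median -0.30), 5 were called lower and none higher, where 5.51% of all tested genes were lower. kl-2, an axonemal dynein heavy chain gene of sperm, was at 10.2 ± 1.8 CPM in knockdown and 14.0 ± 1.2 CPM in control libraries (SD, n = 5 each; log2 -0.45, edgeR adjusted p = 0.0249), and PRY at 2.75 ± 0.41 CPM in knockdown and 3.74 ± 0.24 CPM in control libraries (log2 -0.45, adjusted p = 0.0165). kl-3, another dynein gene (-0.36), ORY (-0.35) and Mst77Y-7 (-0.37), 1 of several near-identical copies whose counts are uncertain, were the other 3. The summed level of the 20 was 85.7 to 117 CPM in knockdown and 123 to 140.3 CPM in control libraries. Replicates 1 to 3 gave a median of -0.18 and replicates 4 and 5 one of -0.51. The testis list leaned the same way, as given above, and its part was not tested.

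Chromosome 4, whose genes are bound by the Pof protein, held few calls: of 97 tested genes 3 were higher and 1 lower (4.12%, against 16.6% of all tested genes), with a median log2 fold change of 0.01 and quartiles of -0.07 and 0.09. Its genes were more abundant (median log2 CPM 5.85, against 4.14 on the large autosomal arms) and had smaller standard errors (median 0.07, against 0.09). Pof itself fell, as given above. No test of the difference between chromosomes was made.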
